A study of Mus musculus with 8 samples.

Results

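The wild type palatal shelf at embryonic day 14.5 is described here across genes, from the 4 of 8 arrays of the series whose labels give wild type shelves. These are replicates 2, 6, 8 and 11. The embryos were mice of a cross of C57BL/6 and SV129, and the wild type animals were littermates of embryos carrying R26Pax3/Pax3, whose 4 arrays are not used here. The labels give no allele or treatment for the wild type group and do not say whether a sample held the shelves of 1 embryo or of several, so the spread between arrays may be technical in part. The platform was the Affymetrix Mouse Genome 430 2.0 array, where a transcript is read by a group of short probes called a probe set. The array held 45037 probe sets besides 64 controls, and 34945 of them had a single gene symbol. For each gene the probe set whose mean of log2(signal + 16) was highest was kept, which gave 18193 ranked genes. Percentiles run up to 100 for the brightest gene.

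The palate grows from a pair of shelves that hang from the maxillary processes beside the tongue, rise above it, meet in the midline and fuse. Each shelf is a core of mesenchyme, mostly derived from the cranial neural crest, covered by oral and nasal epithelium with a flat outer layer, the periderm. Signals such as Shh from the epithelium and BMP, FGF and Wnt factors from both layers control its growth, and bone forms later in the mesenchyme of the anterior shelf. A dissected shelf also carries vessels, nerve fibres, resident immune cells and, towards the back, muscle of the soft palate.

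The 4 arrays were alike in their overall properties. The median signal lay between 43.8 and 44.8, and the 3' to 5' ratio, a measure of RNA integrity read from control probe sets, was 1.45 ± 0.0374 for Actb and 0.743 ± 0.0154 for Gapdh (SD, n = 4). Between pairs of arrays the correlation over 27022 probe sets was lowest at 0.969 for replicates 2 and 6 and highest at 0.981 for replicates 6 and 8. Replicates 6 and 8 stand together in the order of deposit, as do 2 and 11, whose correlation was 0.978. The labels do not say what this order stands for.

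A signal depends on how well a probe set binds as well as on the amount of transcript. Of 9010 genes with at least 2 probe sets, 64.6% had a brightest and a dimmest probe set that differed by more than 1 on the log2 scale, with a median difference of 1.55. The median SD between arrays of the same genes was 0.173. The ranks below are therefore ranks of signals, and 2 genes that stand close in them cannot be ordered by transcript amount. Rps16, a ribosomal protein gene with a single probe set, shows how far this can go. It read 0.5, 0.3, 2.9 and 0.2 in replicates 2, 6, 8 and 11, at rank 18114, while 34 of the 47 ribosomal protein genes measured lay among the 100 brightest.

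The signal was concentrated in few genes. The 30 brightest held 5.06% ± 0.372 of the summed signal of all ranked genes, the 100 brightest 12.7% ± 0.721 and the 1000 brightest 44.8% ± 0.630 (SD, n = 4). Of the 100 brightest, 34 encoded ribosomal proteins, 4 collagen chains and 4 subunits of the respiratory chain or ATP synthase, and 7 were imprinted genes. Tpt1, which encodes the translationally controlled tumour protein, ranked first with 13148, 11349, 9131 and 11712 in replicates 2, 6, 8 and 11. Col1a2, which encodes a chain of type I collagen, was second with 12626, 11111, 9417 and 11174. Rps3a1, of the small ribosomal subunit, was the next with 12455, 10523, 9234 and 10810.0. In each of these genes replicate 2 was the highest array and replicate 8 the lowest. The same order was common at the top, where 70 of the 100 brightest genes were highest in replicate 2 and 76 were lowest in replicate 8. Over all genes these shares were 28.5% and 22.8%.

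**Figure D1:**
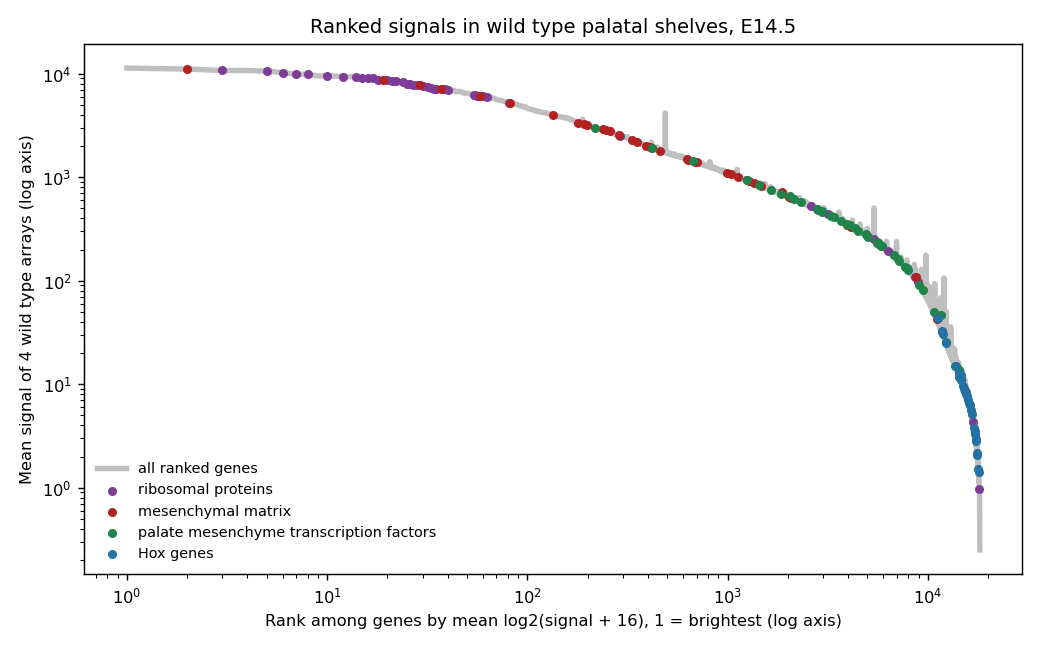
The plot shows the mean signal of each gene over the 4 wild type arrays against its rank, both on log axes, with members of 4 gene lists as coloured points. Ribosomal protein and matrix genes crowd the bright end, from Col1a2 at rank 2, while the brightest Hox gene stands at rank 11238.

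Of the 30 brightest genes, 21 encode ribosomal proteins. The others include Eef1a1, the elongation factor that brings aminoacyl-tRNA to the ribosome (rank 4), Tmsb10, a small actin-binding protein (rank 9), Lgals1, the beta-galactoside-binding galectin-1 (rank 11), and the cytoskeletal actins Actb and Actg1 (ranks 13 and 23). Col3a1, which encodes type III collagen, stood at rank 19, and Col1a1, the second chain of type I collagen, at rank 29. The 47 ribosomal protein genes had a median percentile of 99.8, where all ranked genes have 50 by construction. Of these, 45 lay above the array median, which is that of all probe sets besides the controls, on all 4 arrays. The same held for 56.8% of all ranked genes.

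The promoters of these leading genes were read from RefSeq in build GRCm38.p6, in windows of 250 bases before to 50 bases after the start. A window was listed for 161 of the 200 brightest genes and for 14452 of all ranked genes, and the first listed window of each gene was used. CGGAAG, the core of the site bound by ETS family factors, occurred on either strand in 30 of 41 windows of ribosomal protein genes, or 73.2%, in 36.6% of the 200 brightest and in 24.8% of all. Of 23 windows of mesenchymal matrix genes, 0 held it. The last 60 bases before the start are printed here for 4 bright ribosomal protein genes, because CGGAAG lies in this stretch, with its letters in capitals.
Rpl41, chr10:128549169-128549228, minus strand: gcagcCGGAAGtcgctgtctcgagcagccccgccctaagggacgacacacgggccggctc
Rpl4, chr9:64173327-64173386, plus strand: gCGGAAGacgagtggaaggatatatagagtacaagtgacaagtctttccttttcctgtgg
Rpl38, chr11:114668520-114668579, plus strand: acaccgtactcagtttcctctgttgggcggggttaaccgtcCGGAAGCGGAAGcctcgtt
Rps10, chr17:27635245-27635304, minus strand: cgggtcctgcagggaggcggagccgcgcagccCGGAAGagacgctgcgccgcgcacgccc

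TATAAA, the core of the TATA box, occurred on either strand in 13.7% of the windows of the 200 brightest genes and in 9.87% of all. Matrix genes held it in 5 of their 23 windows, or 21.7%, and ribosomal protein genes in 9.76%. In 27 windows of the palate transcription factors described below its share was 14.8%, against 11.1% for CGGAAG. Between 45 and 15 bases before the start, on the strand of the gene, it occurred in 7 of the 161 windows, or 4.35%, and in 2.61% of all. At that place 0 of the 23 matrix windows held it, 0 of 41 ribosomal protein windows and 0 of 27 palate factor windows. CCAAT was in 43.5% against 38.2% and GGGCGG, the GC box, in 63.4% against 54.0%. The 200 brightest genes also had more CpG dinucleotides, with a median of 24 per window against 17, at a GC content of 60.7% against 58.7%. The 60 bases before the start are shown for the 4 brightest of the 7 genes with a TATAAA at that place. They are Vim, which encodes the intermediate filament protein vimentin, the long non-coding RNA Meg3, Rpl22l1, a relative of a ribosomal protein gene, and Igfbp4, which encodes a binding protein of insulin-like growth factors. Col1a2, the brightest matrix gene, is shown beside them and has no TATAAA in this stretch. Capitals mark TATAAA, and in Meg3 and Rpl22l1 also its copy on the other strand, which overlaps it.
Vim, chr2:13574251-13574310, plus strand: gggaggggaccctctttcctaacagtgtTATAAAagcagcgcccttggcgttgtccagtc
Meg3, chr12:109540936-109540995, plus strand: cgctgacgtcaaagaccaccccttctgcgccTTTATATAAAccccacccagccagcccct
Rpl22l1, chr3:28805448-28805507, plus strand: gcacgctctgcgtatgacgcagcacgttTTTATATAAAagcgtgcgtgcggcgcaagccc
Igfbp4, chr11:99041184-99041243, plus strand: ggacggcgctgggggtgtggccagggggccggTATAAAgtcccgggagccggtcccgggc
Col1a2, chr6:4505558-4505617, plus strand: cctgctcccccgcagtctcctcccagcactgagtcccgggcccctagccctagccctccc

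A match to these letters is a description of the window and does not show that a factor binds there. The windows were listed for 23 of the 39 matrix genes, so the count of 0 for CGGAAG covers those alone.

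The matrix of the mesenchyme was the brightest of the tissue lists. Its 39 measured members had a median percentile of 97.5, and 37 lay above the array median on all 4 arrays. Collagen chains led, and they were followed by proteins that bind and crosslink fibres. Col3a1 read 10000.4 in replicate 2, 8493 in 6, 7973 in 8 and 8473 in 11. Postn, which encodes periostin, an adhesion protein of collagen-rich tissue, stood at rank 37 with 7804, 6852, 7071 and 6743. Sparc, a collagen-binding glycoprotein, stood at rank 58 and Col5a2, a chain of type V collagen, at rank 82. The 4 arrays were close together for each of these genes, with an SD of 0.17 or less on the log2 scale for the matrix genes named here so far except Col1a1, at 0.19. The low end of the list was Col5a3, at percentile 39.1, and Mfap5, a microfibril protein, at percentile 35.1.

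Machinery that folds and exports collagen was bright along with the collagens. All 27 measured members of that list lay above the array median on all 4 arrays, with a median percentile of 91.7. Hspa5, the endoplasmic reticulum chaperone BiP, read 6239, 6258, 4993 and 5611 in replicates 2, 6, 8 and 11. Serpinh1, the collagen chaperone HSP47, read 5278, 4226, 4349 and 5287, and P4hb, the beta subunit of prolyl 4-hydroxylase, read 4737, 4455, 4111 and 4822. Replicate 8 was the lowest array for Hspa5 and P4hb and replicate 6 for Serpinh1. The dimmest members were P4ha3, an alpha subunit of the same hydroxylase, at percentile 56.1, and Pdia4, a disulfide isomerase, at percentile 63.1.

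Genes of early bone stood high as well. The 17 measured members of the osteoblast list had a median percentile of 87.0, with 16 above the array median on all 4 arrays, but this list shares Col1a1, Col1a2 and Sparc with the matrix list. Ibsp, which encodes bone sialoprotein and is largely restricted to mineralising tissue, read 5438, 5289, 4827 and 6796 in replicates 2, 6, 8 and 11, at rank 72. Ifitm5, a membrane protein of osteoblasts, read 977, 1210.3, 916 and 1337, at percentile 94.6. Both were highest in replicate 11 and lowest in replicate 8. Mepe, a phosphoglycoprotein of osteocytes, read 19.4, 26, 10.4 and 5.2 and was below the array median on all 4 arrays. Runx2, Spp1 and Bglap had no probe set with a single symbol here and were not analysed.

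Cartilage genes were mixed. The 22 members had a median percentile of 46.1, and 12 were above the array median on all 4 arrays. Col11a1, a fibrillar collagen that soft mesenchyme also makes, read 1915 in replicate 2, 2184 in 6, 1941 in 8 and 2079 in 11. Col2a1, the main collagen of cartilage, read 468, 916, 609 and 465, and Col9a1, which coats its fibrils, read 217, 805, 333 and 193. Replicate 6 was the highest array for both and replicate 8 the next. Col10a1, the collagen of hypertrophic cartilage, read 1.2, 1.1, 1.4 and 0.9. Matn1, chosen after its values were seen, encodes a matrilin of cartilage matrix and read 5.7, 109, 28.5 and 7.0. In all, 16 of the 22 members were highest in replicate 6, where 27.3% of all ranked genes were. The list mean of log2(signal + 16) was 7.14 there against 6.50, 6.58 and 6.54 in replicates 2, 8 and 11.

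Transcription factors that pattern the palate were above the middle of the ranking. The list had 43 measured members with a median percentile of 73.1, and 37 of them lay above the array median on all 4 arrays while 4 lay below it on all 4. Prrx1, a paired-type homeobox gene of limb and facial mesenchyme, was the brightest with 3166, 3064, 3016 and 2786 in replicates 2, 6, 8 and 11, at rank 218. Snai2, a zinc finger repressor of neural crest cells, followed with 1820.1, 2204, 1887 and 1802, and Shox2, a homeobox gene of the anterior palate, with 1585, 1401, 1212 and 1553. For these 3 genes the highest array was at most 1.31 times the lowest. Lhx8, Mn1 and Twist1, each required for a normal palate, stood at percentiles 93.1, 92.2 and 90.9.

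Msx1, a homeobox gene of the anterior palate that acts with BMP signals, varied more than the leading factors. It read 678 in replicate 2, 387 in 6, 885 in 8 and 688 in 11, an SD of 0.49 on the log2 scale. Pax9, a paired-box gene needed for the shelves to rise, read 315, 354, 469.5 and 251, and Osr2, a zinc finger gene of the shelf mesenchyme, read 403, 246, 351 and 290.0. Tbx22, a T-box gene of the posterior palate, was steadier with 261, 305, 234 and 277. Arrays that were high for one of these genes were not high for all of them, since replicate 8 led for Msx1 and Pax9, replicate 2 for Osr2 and replicate 6 for Tbx22. A test of spread between arrays beyond that of other probe sets of like signal, described with the spread below, called 44 of 27022 probe sets, or 0.163%. By gene, 26 of 12345 had a called probe set (0.211%), and 1088 (8.81%) had one at an unadjusted p under 0.05. Of the 40 members of this list tested with it in limma, 0 were called and 11 had an unadjusted p under 0.05.

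At the low end of the same list, Alx4, Tcf21, Dlx6 and Pax1 were below the array median on all 4 arrays, at percentiles from 21.6 to 32.2. Pax1, a paired-box gene related to Pax9, read 26.3, 19.1, 6.0 and 3.5 in replicates 2, 6, 8 and 11, an SD of 0.53 on the log2 scale. Dlx6, a homeobox gene of the jaw arches, read 9.0, 4.5, 28.0 and 12.4, an SD of 0.47. Their SD was thus close to that of Msx1, which is much brighter. With genes cut by rank into 10 groups, the median SD was 0.132 in group 9, which holds Msx1. In groups 3 and 4 from the dim end, where these 2 genes lie, it was 0.303 and 0.247. Hand2, a factor of the mandibular arch that also acts in the palate, read 18.6, 114, 49.5 and 4.6 in replicates 2, 6, 8 and 11. It was above the array median in replicates 6 and 8 and below it in the others. Meox1 was above it on 3 arrays and Msx2 on all 4 although it stood at percentile 48.2. Hox genes, which the neural crest of the upper jaw does not express, were dim, with 31 of 33 below the array median on all 4 arrays and a median percentile of 14.9. The brightest, Hoxd8, read 77.3, 14.2, 41.9 and 42.1. Olfactory receptor genes, a reference for genes silent in most tissues, had a median percentile of 13.2, with 37 of 39 below the array median on all 4 arrays.

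**Figure D2:**
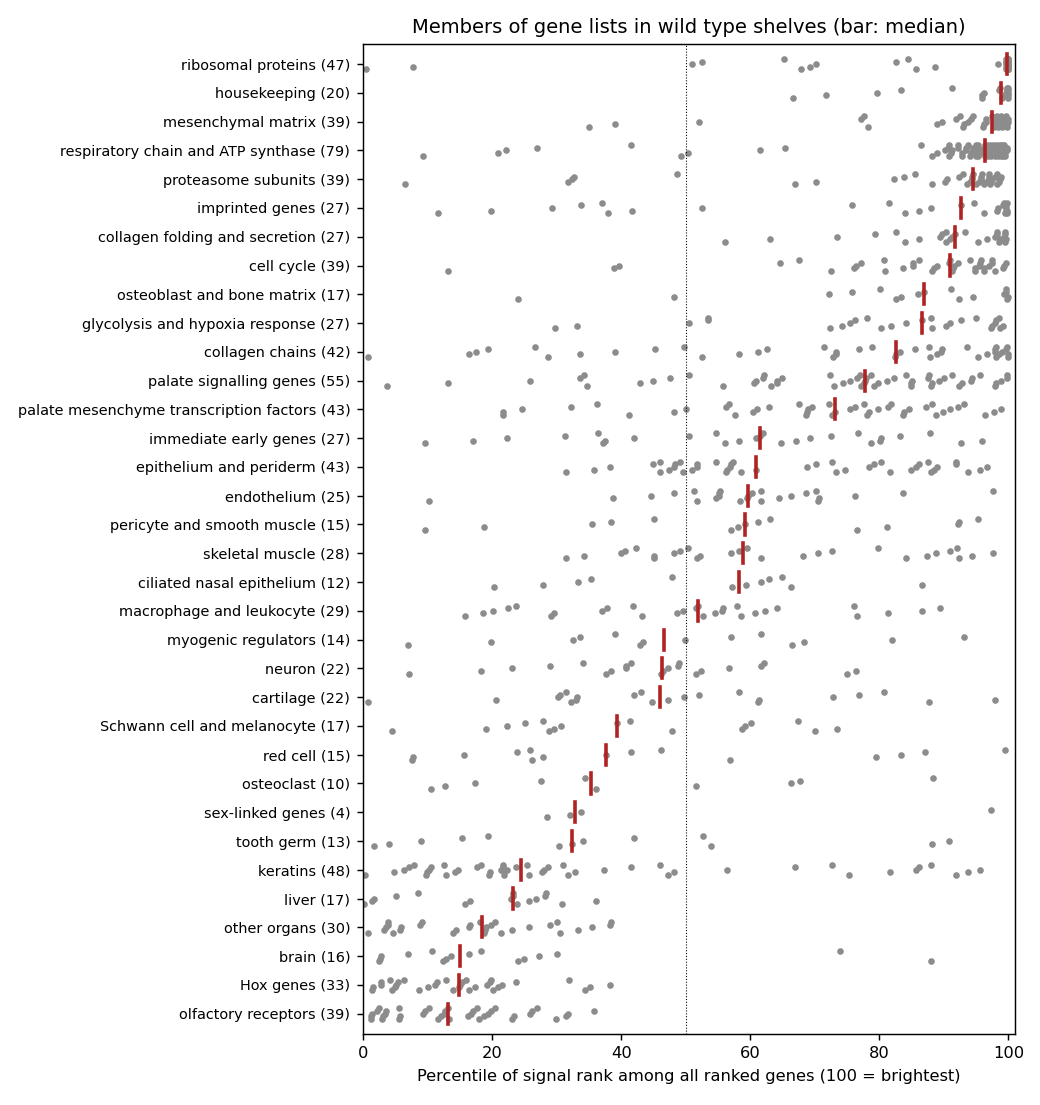
Each point is a gene of a list, placed by the percentile of its rank in the wild type shelves, and the red bar is the median of the list, with the number of genes measured in brackets. Medians run from 99.8 for ribosomal proteins and 97.5 for mesenchymal matrix to 14.9 for Hox genes and 13.2 for olfactory receptors.

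Signalling genes of the palate also stood above the middle of the ranking. Their list had 55 measured members, a median percentile of 77.8 and 48 members above the array median on all 4 arrays. Pdgfra, the PDGF receptor of neural crest mesenchyme, read 2347, 2271, 2305 and 2051 in replicates 2, 6, 8 and 11. Bmpr1a, a type I BMP receptor, read 1160.3, 1276, 1291 and 1350.3, and Fgfr2, whose epithelial and mesenchymal isoforms receive different FGFs, read 1077, 1075, 1018 and 985. For these 3 receptors the SD between arrays was at most 0.091 on the log2 scale. Tgfbr2 and Tgfbr1, the receptor pair for TGF-beta, stood at percentiles 94.3 and 92.4. Of the receptors for retinoic acid, Rarg stood at percentile 77.0, near the median of the list. Rarb and Rara were lower, at percentiles 55.8 and 34.8. Rara read 39.1, 21.6, 33.7 and 28.0, below the array median on all 4 arrays.

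Genes of the hedgehog pathway were above the array median from ligand to target. Shh, made by the palatal epithelium, read 341, 302, 392 and 328 in replicates 2, 6, 8 and 11. Ptch1, both receptor and target of the pathway, read 1936, 2208, 2253 and 1887, and Smo, the signal transducer, read 1069, 749.6, 846 and 959. The transcription factors Gli3, Gli2 and Gli1 stood at percentiles 87.6, 84.9 and 75.4, all above the array median on all 4 arrays. Hhip, an inhibitor that binds the ligand, stood at percentile 62.1.

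Among the ligands, Igf2, a growth factor of embryonic tissue, was the brightest with 8172, 6369, 6236 and 7095 in replicates 2, 6, 8 and 11, and Igf1 read 3429.9, 3087, 3148 and 2682. Tgfb3, which the fusing epithelium needs, read 627, 539, 556 and 639. Wnt5a stood at percentile 82.3, Bmp4 at percentile 79.8 and Bmp2 at percentile 78.7. These were above the array median on all 4 arrays. Others that are known from palate development were dim on their probe sets. Fgf10, the mesenchymal ligand of Fgfr2, read 18.4, 13.2, 21.8 and 11.6, and Wnt9b, whose loss gives cleft lip in mice, read 10.3, 11.8, 5.1 and 1.6. Wnt3 read between 0.5 and 3.8, and Nog, a BMP antagonist, between 20.8 and 33.7. All 4 were below the array median on each array. Dim signals and absent transcripts look alike on these arrays, so a dim value of a ligand is given as a signal alone.

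Ctnnb1, which encodes beta-catenin of the Wnt pathway and of cell junctions, read 6650.1, 7662, 6357 and 6258 in replicates 2, 6, 8 and 11. Aldh1a2, an enzyme that makes retinoic acid, read 287, 306, 519 and 302, so replicate 8 stood apart from the other arrays. Cyp26b1, which degrades retinoic acid, was steadier at 293, 259, 238 and 301. Of the 52 members of the signalling list tested for spread in limma, 0 were called, against 0.211% of all genes tested, and 9 had an unadjusted p under 0.05, against 8.81%.

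Epithelium was measured beside the mesenchyme at lower signals. The 43 members had a median percentile of 60.9, and 40 of them were above the array median on all 4 arrays. Dsp, the desmosomal anchor desmoplakin, read 1558, 1622, 1737 and 1272 in replicates 2, 6, 8 and 11. Krt15 and Krt14, keratins of the basal layer, read 1648, 988, 1283 and 1289, and 1035, 673, 723 and 878. Krt8, a keratin of simple epithelium and periderm, was more even at 971, 1002, 991 and 1024. For the basal keratins replicate 2 was the highest array and replicate 6 the lowest, and for Krt8 the highest array was 1.05 times the lowest. Ovol1, a zinc finger factor of differentiating epithelium, was the dimmest at percentile 31.4. Fewer cells of a type and less RNA per cell cannot be told apart in such bulk tissue.

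Of all 48 keratin genes measured, 14 were above the array median on all 4 arrays and 32 below it on all 4. The brightest 6 were Krt15, Krt8, Krt14, Krt18, Krt5 and Krt6a. Genes of ciliated nasal epithelium were measured too. Bpifa1, a secreted protein of the airway surface, read 281, 696, 568 and 809.6 in replicates 2, 6, 8 and 11, and Foxj1, which switches on motile cilia genes, read 142, 210.1, 214 and 251. Replicate 2 was lowest in both, and it was the lowest array for 10 of the 12 list members, against 24.1% of all ranked genes. Tooth germ genes were mostly dim, with a median percentile of 32.4, although Sostdc1, a secreted BMP and Wnt antagonist, read 787, 573, 1217 and 557.

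Skeletal muscle contributed contractile genes in every array, least in replicate 6. Actc1, the actin of heart and embryonic muscle, read 2243 in replicate 2, 969.6 in 6, 1919 in 8 and 2702 in 11. Acta1, the skeletal muscle actin, read 1082, 522, 783 and 1168, and Myh3, the embryonic myosin heavy chain, read 1061, 453, 919 and 1101. Replicate 6 was lowest and replicate 11 highest in all 3. Of the 28 list members, 25 were lowest in replicate 6 and 23 highest in replicate 11. Over all ranked genes these shares were 26.6% and 22.3%. The list had a median percentile of 58.9. The mean log2(signal + 16) of the list was 7.83, 6.99, 7.72 and 8.12. The median percentile of the list within a single array ran from 48.1 to 68.9. In the test of spread in limma 0 of 27 members were called, but 21 had an unadjusted p under 0.05, where 8.81% of all genes tested did.

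Myogenic regulators were dimmer, with a median percentile of 46.6 over 14 genes. Mef2c, a factor that muscle shares with endothelium and neural crest, was the brightest at percentile 93.2. Myog, the differentiation factor myogenin, read 239.8, 85.4, 282 and 275 in replicates 2, 6, 8 and 11 and was thus lowest in the same array as the contractile genes. Pax3, a paired-box gene of muscle precursors and early neural crest, read 176, 142, 167 and 162, at percentile 61.7. Myf6 was below the array median on all 4 arrays.

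Of the 34 lists and families, the neuronal list had the widest range of its mean log2(signal + 16) between arrays, at 1.42. By the SD over arrays of the median percentile the 4 sex-linked genes differed more, at 21.7 against 13.6. The 22 neuronal genes had a median percentile of 46.4, which ran from 31.8 to 59.8 within single arrays. Stmn2, a microtubule regulator of growing axons, read 60.8 in replicate 2, 575 in 6, 259 in 8 and 62.4 in 11. Prph, the filament protein peripherin of peripheral neurons, read 23.3, 320.0, 125 and 22.0, and Rtn1, a reticulon of the neuronal endoplasmic reticulum, read 25.4, 264, 124 and 20.6. In these 3 genes replicates 6 and 8 lay above 2 and 11, which held for 20.2% of all probe sets tested for spread. Gap43, a protein of growth cones, was less uneven at 236, 521, 323 and 258. Snap25, Ina and Tubb3, chosen after their values were seen, were likewise highest in replicate 6, with 110, 169 and 136. Of the 22 members, 19 were highest in replicate 6, where 27.3% of all ranked genes were. The list means were 5.77, 7.19, 6.60 and 5.78. Markers of Schwann cells and melanocytes moved less, from 6.04 to 6.25. Brain genes had a median percentile of 15, with 14 of 16 below the array median on all 4 arrays. The other brain genes were Sox2, which oral epithelium also expresses, at percentile 88.0, and Slc1a3, a glutamate transporter, at percentile 74.0.

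**Figure D3:**
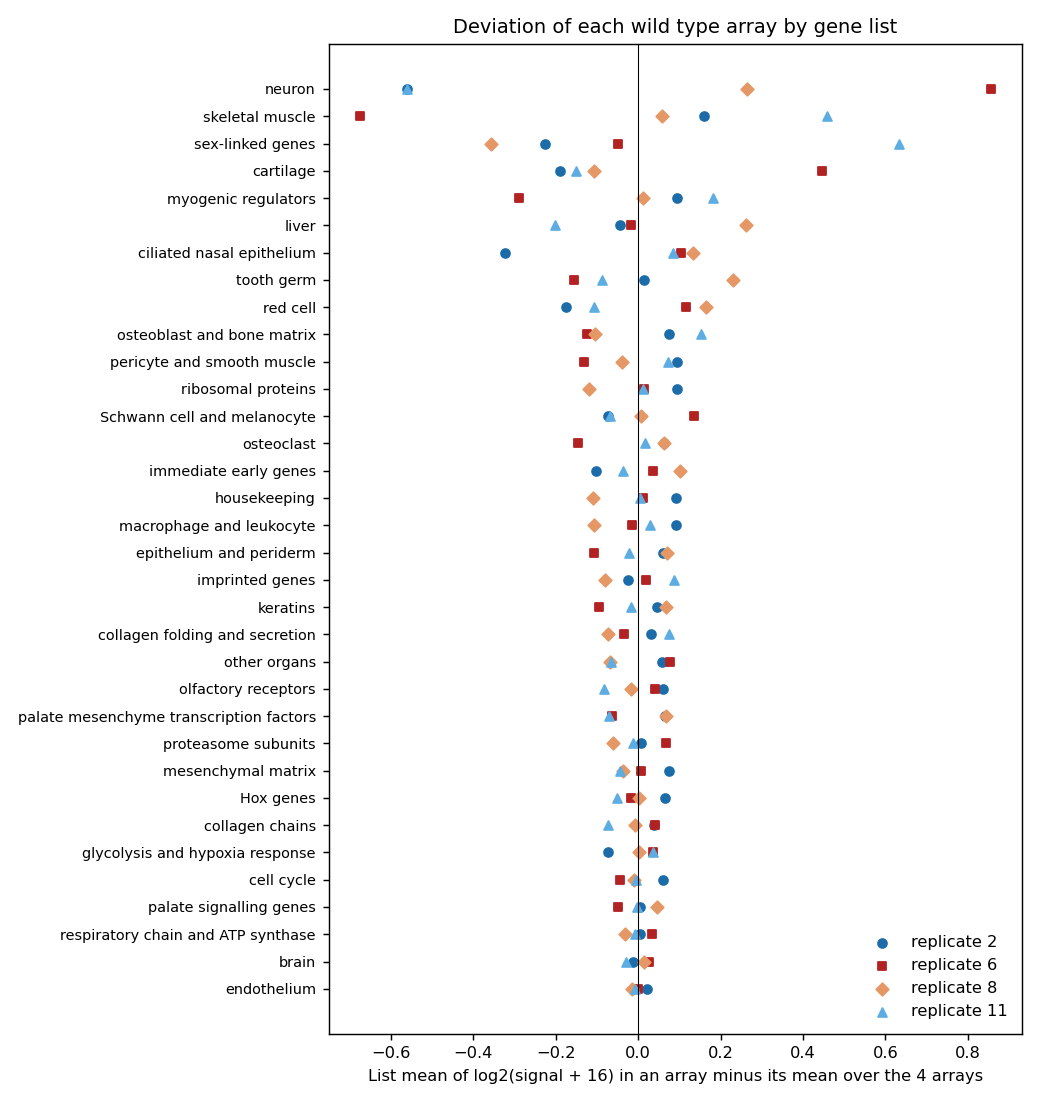
For each gene list the plot gives the mean log2(signal + 16) in a wild type array minus the mean over the 4 arrays, on a linear axis. Neuronal genes were highest and skeletal muscle genes lowest in replicate 6, while the endothelial list differed by 0.04 between its highest and lowest array.

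Nerve and muscle differed between arrays in opposite directions in replicate 6. Summed over list members, neuronal signal was 1352 in replicate 2, 4047 in 6, 2449 in 8 and 1311 in 11, and muscle signal was 11218, 5750, 9730 and 13490. The summed signal of the mesenchymal matrix list was 106432, 96386, 91978 and 98084. Neuronal signal was thus highest, and muscle signal lowest, in replicate 6, while matrix signal was lowest in replicate 8. How far the cut of the dissected shelf differed between samples is not given in the labels, and its part in these values was not tested.

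Vessels were even between arrays. The 25 endothelial genes had list means of 7.42, 7.40, 7.38 and 7.39 in replicates 2, 6, 8 and 11, and 23 lay above the array median on all 4 arrays. Aplnr, the apelin receptor, was the brightest with 1937, 2029, 1997 and 1663, and Kdr, the main VEGF receptor, read 279, 229.9, 229.5 and 223. Esm1, a product of sprouting tip cells, was dim at 3.9, 1.8, 16.9 and 1.8. Among pericyte and smooth muscle genes, Pdgfrb, a receptor that other mesenchyme also carries, read 777, 828, 920.1 and 878, while Cnn1, of contractile smooth muscle, read between 3.1 and 7.0.

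Macrophage genes were led by Csf1r, the receptor for the growth factor of these cells, with 639, 805, 702 and 546 in replicates 2, 6, 8 and 11. Mrc1, the mannose receptor, read 444, 407, 351 and 425. The list of 29 genes had a median percentile of 51.9, with 18 above the array median on all 4 arrays. Cd3e, of T cells, and Mcpt4, of mast cells, were at its low end, below the array median on all 4. Of osteoclast genes Ctsk, the collagen-degrading cathepsin K that fibroblasts also make, read 543, 667, 600.2 and 661, while Calcr, the calcitonin receptor, read between 0.5 and 9.2.

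The 15 red cell genes measured had a median percentile of 37.7. Of these, 6 lay above the array median on all 4 arrays and 7 below it on all 4. The brightest was Hbb-y, an embryonic beta-like globin, with 4468, 5037, 4987 and 5265 in replicates 2, 6, 8 and 11, at rank 90. A probe set of both Hba-a1 and Hba-a2, not ranked for its several symbols, read 7014, 3808, 4267 and 1719. It was called for spread (limma adjusted p = 0.0330), and again in 6 of 12 alternatives. Hbb-b1 and Hbb-bt had no probe set with a single symbol and were not ranked. Hba-x, the embryonic alpha-like globin, read 187, 426, 599.5 and 380. Genes of liver and of other organs served as references for absent tissues. Of 17 liver genes 16, and of 30 genes of other organs 28, lay below the array median on all 4 arrays. The liver exception was Afp, which encodes alpha-fetoprotein and read 1.5, 84.0, 189 and 0.2, above the array median in replicates 6 and 8 alone.

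Genes of cell division and energy supply stood high. The 39 cell cycle genes had a median percentile of 91.0, with 36 above the array median on all 4 arrays. Pcna, the sliding clamp of DNA replication, read 4018, 3931, 3532 and 3842 in replicates 2, 6, 8 and 11, and Top2a, a topoisomerase of dividing cells, read 1882, 1672, 1823 and 1789.5. The brightest member was Cdkn1c, an inhibitor of the cycle and an imprinted gene, with 6645, 5625, 5299 and 6377. Cdkn2a, another inhibitor, was dim at 4.9, 3.0, 7.7 and 12.6. Of 79 subunits of the respiratory chain and ATP synthase 74 were above the array median on all 4 arrays, and of 27 glycolysis and hypoxia genes 25. Ldha, lactate dehydrogenase A, led the latter with 3752, 3683, 3513 and 3664.

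Imprinted genes, which are expressed from the allele of 1 parent, included several of the brightest genes. Of 27 measured, 7 lay among the 100 brightest genes, 14 above the 90th percentile and 4 below the array median on all 4 arrays. Plagl1, a zinc finger regulator of other imprinted genes, read 8532, 7415, 7001 and 7179.7 in replicates 2, 6, 8 and 11, at rank 31. Gnas, Mest, Meg3 and Grb10 stood at ranks 52, 66, 74 and 84, beside Igf2 at 41 and Cdkn1c at 62. The SD of these 7 genes was between 0.05 and 0.18 on the log2 scale. Snrpn, at the other end, read 5.0, 2.4, 4.1 and 14.1.

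The sex-linked genes separated the arrays. Xist, the RNA that coats the inactive X chromosome, read 5882 in replicate 2, 5764 in 6, 4995 in 8 and 39.0 in 11. Eif2s3y, on the Y chromosome, read 12, 0.7, 3.1 and 409.8, and Kdm5d and Uty, also on the Y, read 178 and 122 in replicate 11 against at most 12.2 and 18.9 in the others. Replicate 11 was thus low for Xist and high for the Y genes, and the other 3 arrays were the reverse. No array was high for both.

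Most genes varied little. The median SD of a gene between the 4 arrays was 0.187 on the log2 scale. With genes cut by rank into 10 groups of like size, it was 0.167 in the dimmest. In the next group, with a median signal of 8.3, it was 0.331, and from there it was smaller in each brighter group, down to 0.120 in the brightest, with a median signal of 1172. The latter is a change of 8.70% for a typical bright gene. Of genes above the 90th percentile Ywhah, a 14-3-3 adapter protein, was the steadiest with 1219, 1217, 1232 and 1219 in replicates 2, 6, 8 and 11. Kpna2, a nuclear import receptor, followed with 1994, 1967, 2003 and 2003. Cdh11, a cadherin of mesenchyme, was also among the 10 steadiest with 4269, 4309.8, 4349 and 4411. The highest of these arrays was 1.01, 1.02 and 1.03 times the lowest.

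To find transcripts that differed between wild type shelves more than others of like signal, the variance of each probe set was compared with limma's prior variance at its signal level, as a 1-sided F test with Benjamini-Hochberg adjustment. The dimmest 40% of probe sets were left out, and those with an adjusted p under 0.05 are the 44 called. This count leaned on the settings. It was 0 with a prior that did not follow the signal (1152 at an unadjusted p under 0.05 in limma), 4 without the filter on dim probe sets, 5 without replicate 11 and 25 without replicate 8. At an unadjusted p under 0.05 there were 1526, or 5.65%, where 1351 would be expected if every probe set followed the trend. The called probe sets with a single symbol belonged to 26 genes. On simulated data the test missed most probe sets at the smaller of the raised spreads tried and many at the larger. A list with 0 called members is therefore not shown to be even.

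Nerve and sex-linked genes made up a share of these calls. Of 18 neuronal genes tested 4 were called, against a background of 26 of 12345 genes, and they were Stmn2, Stmn3, Prph and Rtn1. Prph and Rtn1 passed the filter on dim probe sets only through replicates 6 and 8, where they were high, so their calls are no independent support. Their limma adjusted p ran from 0.0194 to 0.0379. All 4 were called again without replicate 2, with other pseudocounts and with quantile normalization, and 3 of them without replicate 8. The count was 0 without replicate 6, without replicate 11 or with a term for the place in the deposit. It was also 0 without the filter, with a filter at the 60th percentile, without the robust option and without the trend. Xist was called on all of its 3 probe sets (limma adjusted p = 4.89e-05 for the brightest) and Eif2s3y on 1 of 2 (limma adjusted p = 0.0194). Without replicate 11 the brightest probe set of Xist and that of Eif2s3y both had a limma adjusted p of 0.996, and that of Xist was called in 10 of 12 alternatives. Of the other lists, liver had Afp, immediate early genes had Ccn1 and ribosomal proteins had Rps9. On probe sets with a single symbol the remaining lists had 0 called members. Afp was not called without replicate 8 (limma adjusted p = 0.207) or 11 (0.0615), and neither of the called probe sets of Ccn1 was called without replicate 2, 6 or 11. Rps9 was called again whichever replicate was left out, and in 11 of 12 alternatives. Eif2s3y and Afp passed the filter on the mean only through their high arrays, and they are among the 8 of the 44 called probe sets that would not have passed without their highest array. Without their 2 highest arrays 13 of the 44 would not have passed, and Prph, Rtn1 and Vip are among these. With no filter the limma adjusted p of Eif2s3y and Afp was 0.202 and 0.266, and only 4 of the 44 calls remained. Over the alternatives it ran from 0.00443 to 0.996 for Eif2s3y and from 0.0144 to 0.876 for Afp. Vip, the neuropeptide vasoactive intestinal peptide of parasympathetic nerve fibres, was called with 7.8, 487, 206 and 5.1 in replicates 2, 6, 8 and 11 (limma adjusted p = 0.00602). It was high in the same arrays as the neuronal list, of which it was no member. Over 11 alternatives its limma adjusted p ran from 0.00194 to 0.537, the highest with the term for the place in the deposit.

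**Figure D4:**
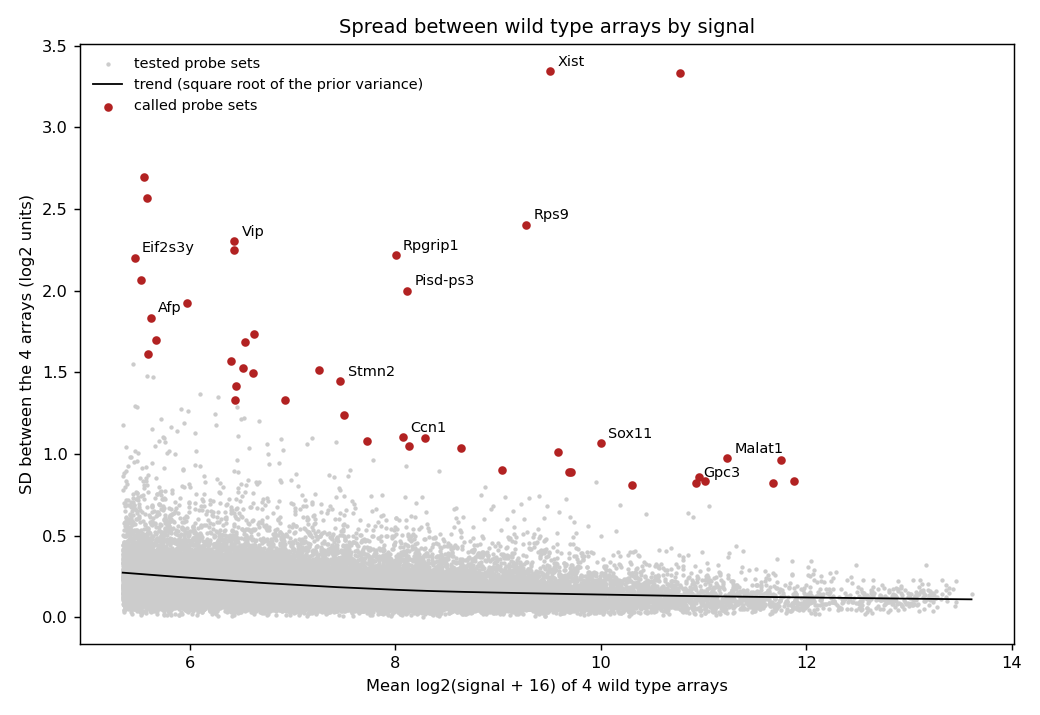
The SD between the 4 wild type arrays is plotted against the mean log2(signal + 16) for 27022 probe sets, with the trend as a line and the 44 called probe sets in red. The smallest SD among the called probe sets is 0.807, and the 2 highest points are probe sets of Xist.

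Some calls did not extend to other probe sets of the same gene. The called probe set of Rps9, of the small ribosomal subunit, read 2234, 121, 3005 and 142 in replicates 2, 6, 8 and 11. The brightest probe set of Rps9 read 6240.1, 6215, 5783 and 6345. In Sox11, a transcription factor of immature neurons and mesenchyme, 1 of 6 probe sets was called, and in Malat1, a nuclear long non-coding RNA, 3 of 7. Its brightest probe set read 1557, 5424, 2724 and 4822, with replicates 6 and 11 high. Ccn1, a matricellular protein induced by serum and stretch, was called on 2 of 4 probe sets, and the brightest read 94.1, 584, 375 and 227.

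A few genes were much lower in replicates 6 and 8. Rpgrip1, known as a ciliary protein of photoreceptors, read 996, 50.6, 53.1 and 917 in replicates 2, 6, 8 and 11 (limma adjusted p = 0.00171), and its other 3 probe sets had means of 15 or less. Pisd-ps3, a pseudogene of a phospholipid-synthesis enzyme, read 1018, 42.0, 115 and 746 (limma adjusted p = 0.00261). Gpc3, a glypican at the cell surface that restrains growth, read 3011, 1319, 1056 and 3308 (limma adjusted p = 0.0383). In all 3 the arrays that stand together in the deposit did not overlap with the others. The term for the place in the deposit takes up such a difference by its construction, and with it none of these 3 was called (limma adjusted p of 0.997, 0.158 and 0.975). Over all alternatives the limma adjusted p ran from 0.000675 to 0.997 for Rpgrip1, from 0.00213 to 0.251 for Pisd-ps3 and from 0.0263 to 0.975 for Gpc3. Of the 44 called probe sets, 18 were higher in replicates 6 and 8 than in both others, or 40.9%, and 10 were lower, or 22.7%. Over all 27022 probe sets tested these shares were 20.2% and 24.1%. With a term for the place in the deposit, 44 were called again, of which 26 were the same.

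**Figure D5:**
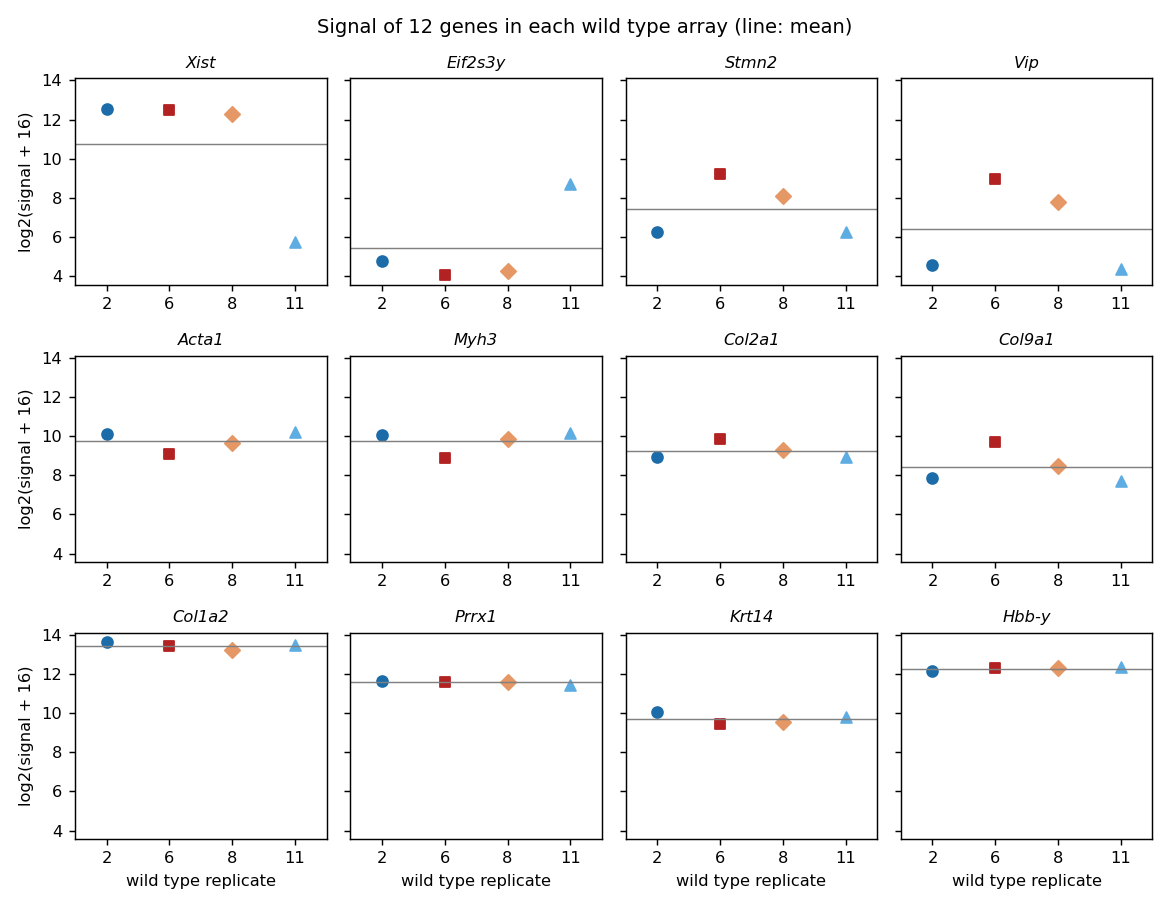
Each panel gives log2(signal + 16) of a gene in the 4 wild type arrays, with the mean as a line and the same axis in all panels. Xist and Eif2s3y separate replicate 11, Stmn2 and Vip separate replicates 6 and 8 from 2 and 11, and Col1a2, Prrx1 and Hbb-y are nearly level.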

How the data were processed

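The 4 wild type arrays were taken by the genotype in their titles and are named by the replicate numbers given there. Per the submitters' processing notes the authors made linear signal intensities with MAS5, which corrects background and scales each array. The deposited intensities had a 2% trimmed mean of 150.0 on every array, and such scaling hides a change shared by most genes. Detection calls were not used here. No embryos per sample are given, so the p-values refer to spread among these samples alone, which may be technical.

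All values were put on the scale log2(signal + 16) without another normalization step. Symbols came from the array annotation, and 932 probe sets with several symbols and 9160 with none were left out of the ranking. Of 18194 Entrez identifiers, 18032 were in the RefSeq table of GRCm38.p6, and no symbol changed.

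Spread was tested with limma 3.58.1 in R 4.3.3, with an intercept alone and eBayes with trend and robust options. The residual variance was read against an F distribution with 3 and 7.57 degrees of freedom, 1-sided, with Benjamini-Hochberg adjustment over 27022 probe sets. The procedure was tested on simulated data with 2 sizes of raised spread, where it found few probe sets at the smaller and missed many at the larger. Ranks and lists were described without a test. Figures were drawn with matplotlib 3.10.9.

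The lists hold 27 sets of cell type, pathway and reference genes and 7 families found by symbol. Genes named are the 30 brightest, members of the palate and sex-linked lists, up to 6 brightest and 2 dimmest of each other list, up to 25 genes called for spread and the 10 steadiest. Genes named outside this rule include Grb10, Vim, Rpl22l1, Igfbp4, Matn1, Snap25, Ina and Tubb3, taken up with their ranks or values known. The pattern for ribosomal proteins was widened after values were seen. The samples, lists and genes were chosen with earlier results of these data known. Alternatives were other pseudocounts, filters, quantile normalization, the median over the probe sets of a gene, other priors, a term for the place in the deposit and leaving out each array.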

Additional observations from a re-analysis of the deposited data

Results flagged for a closer look

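In 6 results 1 array stood apart from the other 3 by more than Dixon's 95% critical value for 4 samples. Over 34 lists 2 stood apart, where 1.7 would be expected at 1 in 20. Over 165 genes 4 did, where 8.25 would be expected. These genes include some picked for large or small spread in the same arrays, and the sex-linked ones move together. The expected numbers are therefore a rough guide and cannot tell whether a given result is due to chance. The cartilage list had a mean log2(signal + 16) of 7.14 in replicate 6 against 6.50 to 6.58 in the other arrays. The ciliated nasal epithelium list had a mean of 6.47 in replicate 2 against 6.88 to 6.93. Xist read 39.0 in replicate 11 against 4995 to 5882. Eif2s3y read 409.8 there against 0.7 to 12, and Kdm5d 178.5 against 3.5 to 12.2. Aldh1a2 read 518.9 in replicate 8 against 287 to 306.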

How the results depend on the processing

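The 100 brightest genes were all kept with pseudocounts of 1 and 64 and with quantile normalization, and 98 to 100 of them without one array. With the median over the probe sets of a gene, 65 were kept. The number of lists with a median percentile above 50 was 20 under the main setting and lay between 20 and 22 under all alternatives. With that median over probe sets the cartilage and myogenic regulator lists moved to 51.6 and 51.5, and without replicate 2 the neuronal list moved to 50.2. The median SD between arrays over genes was 0.2525 with a pseudocount of 1 and 0.1142 with 64, and 0.1678 to 0.1816 without one array. For probe sets of one gene the median difference was 2.197 and 1.008 with these pseudocounts, by their construction, and 1.53 to 1.57 without one array. For spread, 39 probe sets were called with a pseudocount of 1, of which 34 were among the 44, 48 with 64, of which 43 were, and 39 with quantile normalization, all among them. There were 4 without the filter, 5 with a filter at the 60th percentile, 9 with the trend but no robust option, and 0 with the robust option but no trend. Leaving out one array gave 5 to 43 calls. The cause of these losses was not tested. No paired analysis was possible because the result comes from one group, whose replicate numbers the other genotype does not share. Where only 4 arrays and no detection calls are at hand, dim signals and absent ones cannot be told apart, and a level holds how well its probe set binds.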
